A study of Sus scrofa with 48 samples.

Results

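MHC class I genes, beta-2-microglobulin and the transporter of antigenic peptides were examined in perirenal adipose tissue (PRAT), the fat around the kidneys, of 48 pigs. The 10 member genes were chosen as class I heavy chains or peptide loading genes, namely SLA-1, SLA-2, SLA-3, SLA-5, SLA-6, SLA-7, SLA-8, B2M, TAP1 and TAP2. Their probes were those whose gene name in the scanner files was one of these symbols. This gave 41 of the 60305 probes on the array, with 9 for B2M, 8 for SLA-3, 7 for SLA-1, 5 for TAP2, 4 for SLA-8, 3 for TAP1, 2 each for SLA-5 and SLA-6, and 1 for SLA-7. No probe carried the name SLA-2. A probe was tested if its spot was flagged well above background on at least 24 of the 48 arrays, which left 40 member probes among 43355 probes in all. The probe that was left out was SLA-6 probe A_72_P260597, well above background on 1 array.

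The animals belonged to lines divergently bred for residual feed intake, the feed eaten beyond what growth and maintenance predict, with RFIneg standing for the low RFI line and RFIpl for the high RFI line. Within both lines some pigs had free access to feed rich in fat and fiber (HF) and others to feed poor in both (LF), and all were 132 days old. Each of the 4 combinations of diet and line had 12 pigs, with 1 one-colour (Cy3) array for the RNA of 1 pig. The labels do not say how the pigs of a line were related. Values are the log2-transformed median pixel signal of each spot minus the array's median over all probes, so they are relative to the median probe and are not compared between probes. The median signal of an array lay between 115 and 178, between 38875 and 47813 probes were well above background, and no spot was saturated. The 8 arrays of each of the 6 slides held 2 pigs of every group, and slides were scanned on 2 days. The 6 adipocyte markers were all measured, with a mean level between 8.32 and 9.18 in single pigs, and 1 of the 5 kidney and adrenal markers (STAR) passed the filter. As whole tissue was measured, fewer cells of a type and less RNA per cell cannot be told apart.

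MHC class I molecules display short peptides from inside the cell to CD8 T cells and natural killer cells. Each is a polymorphic heavy chain held together with the invariant light chain beta-2-microglobulin, and in pigs the heavy chains are called swine leukocyte antigens (SLA). SLA-1, SLA-2 and SLA-3 are the classical chains, and SLA-6, SLA-7 and SLA-8 are nonclassical chains. TAP1 and TAP2 form the transporter that moves peptides from the cytosol into the endoplasmic reticulum, where class I molecules are loaded. In the RefSeq gene table of assembly Sscrofa11.1 the SLA genes and both TAP genes lie on chromosome 7 and B2M on chromosome 1. Class I heavy chains are among the most variable genes of a mammal, and the sequences of these pigs were not measured. A difference in transcript level and a difference in how well a probe binds the alleles of a line therefore cannot be told apart for any single probe.

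Several heavy chain probes overlapped, and their sequences are shown because overlapping probes are read against each other below. Each probe has 60 bases, and only the stretch that a pair shares, or up to 30 bases of it, is given, from 5′ to 3′, with capitals at the positions where the pair differs. For SLA-1, probe A_72_P124686 overlapped A_72_P035616 and CUST_366_PI427286967. Positions are counted from 1 at the 5′ end of the first line of each pair. Within the 30 bases shown, the substitutions from the first to the second probe were A6G and T25A in the first pair. In the second pair the substitution within these bases was T13A.
SLA-1 A_72_P035616: gggatAataaatgagagatttcctTagttt
SLA-1 A_72_P124686: gggatGataaatgagagatttcctAagttt
SLA-1 CUST_366_PI427286967: gagagatttcctTagtttgaaagaggaaat
SLA-1 A_72_P124686: gagagatttcctAagtttgaaagaggaaat

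The probe pair A_72_P440391 (SLA-1) and A_72_P440386 (SLA-3) shared 59 positions with 4 substitutions (G7C, G18T, G19A and C39G), and the SLA-8 pair A_72_P541846 and A_72_P734731 shared 58 positions with 1 substitution (G56A). They are shown because a probe of one heavy chain gene nearly equalled that of another, and because the SLA-8 pair ran against other SLA-8 probes.
SLA-1 A_72_P440391: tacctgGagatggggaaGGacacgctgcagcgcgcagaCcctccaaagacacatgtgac
SLA-3 A_72_P440386: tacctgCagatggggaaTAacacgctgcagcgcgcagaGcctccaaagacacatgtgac
SLA-8 A_72_P541846: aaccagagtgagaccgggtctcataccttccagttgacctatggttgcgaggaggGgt
SLA-8 A_72_P734731: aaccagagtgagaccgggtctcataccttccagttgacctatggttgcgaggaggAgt

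The remaining sequences are the whole SLA-5 and SLA-3 probes with the largest line differences of their genes, with no position marked.
SLA-5 A_72_P414498: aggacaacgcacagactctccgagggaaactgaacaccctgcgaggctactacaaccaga
SLA-3 A_72_P517623: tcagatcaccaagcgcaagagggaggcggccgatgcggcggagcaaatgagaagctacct

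The annotation of the probes showed the same overlap between genes. Through the RefSeq table, 19 of the 41 probes led to 1 gene symbol, 3 to several and 19 to none. The 3 probes with several symbols, A_72_P440391, A_72_P440386 and A_72_P683231, all listed a transcript of SLA-2, so that signal of SLA-2 could enter probes named SLA-1 or SLA-3. A_72_P440391, named SLA-1, listed no SLA-1 transcript, and the other SLA-1 probes led to no symbol. A_72_P683231, named SLA-3, also listed SLA-5. All probes are counted below under their gene name in the scanner files, and their signal may not be of that gene alone. Probe CUST_238_PI427286967, named SLA-1, was described in the files as PDZ and LIM domain 7, but it shared 58 positions with CUST_30_PI427286967, described as similar to a class I antigen, with 1 mismatch.

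Between the lines, class I heavy chain signal differed at many probes, and the light chain and the transporter did not pass the test. With limma, a probe was called at a raw p under 0.01, a fold change over 1.1 and a Benjamini-Hochberg (BH) adjusted p under 0.08 over all tested probes. Of the 40 member probes 13 were called for line, or 32.5%, against 3.37% of all 43355 probes. All 13 were heavy chain probes, of 23 tested, and were named SLA-1, SLA-3, SLA-5 or SLA-8. Probes of 1 gene measure the same pigs and some share sequence, so the 13 are not separate observations. Of the 13, 10 were lower in low RFI pigs, where 1.67% of all probes were called in this direction, and 3 were higher, against 1.71%. The median difference of low RFI minus high RFI was -0.24 over the 23 heavy chain probes, -0.07 over the 17 probes of B2M, TAP1 and TAP2 and 0.00 over all tested probes. None of the 17 B2M and TAP probes was called by limma, 2 of them had a raw p under 0.05, and their smallest BH adjusted p was 0.289.

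**Figure D1:**
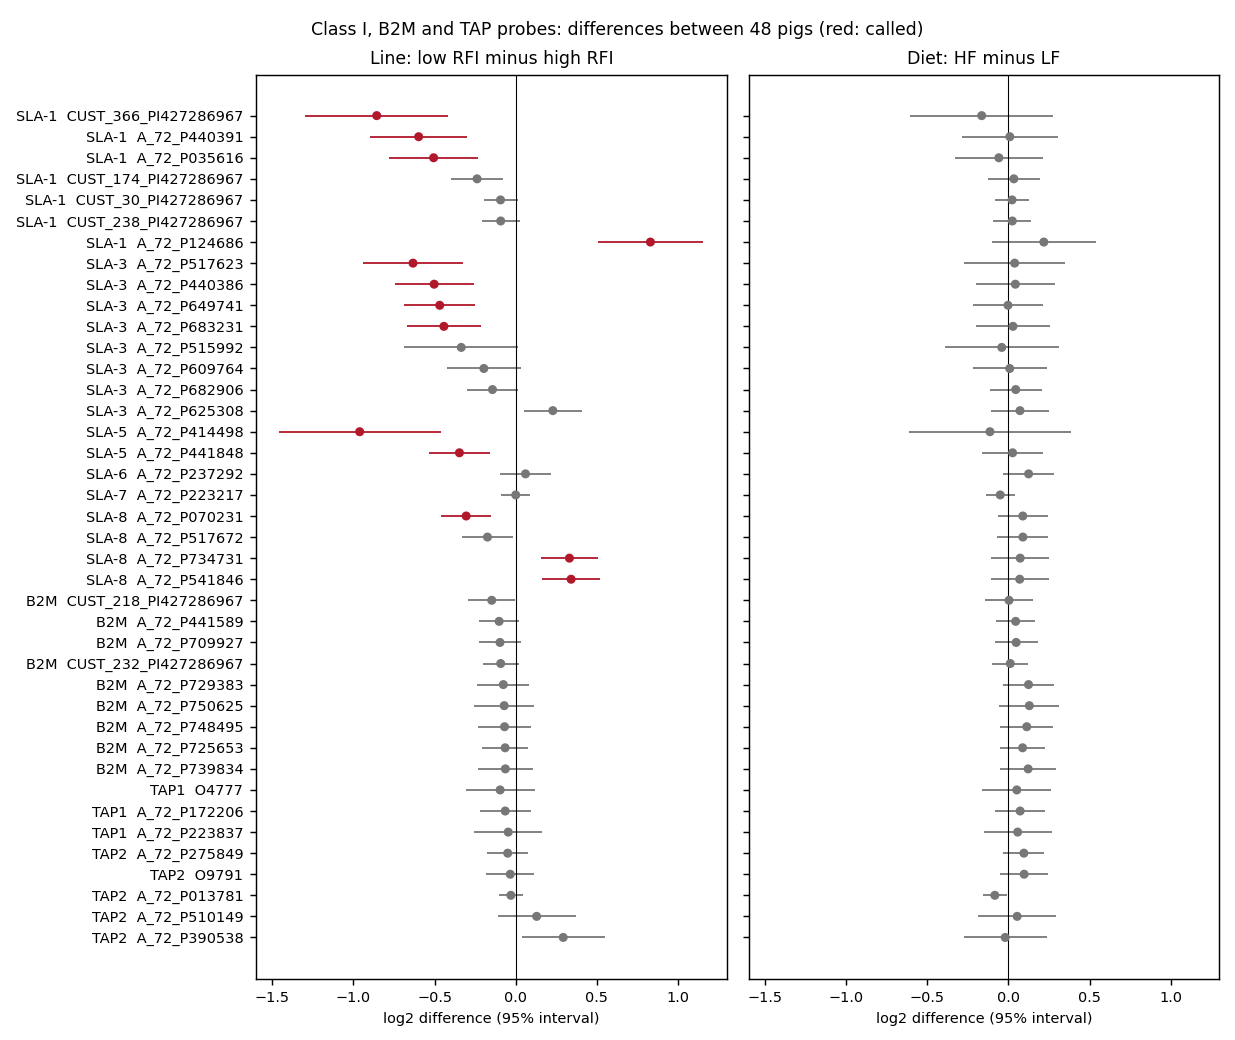
Line difference (left) and diet difference (right) of each of the 40 tested probes on the log2 scale, with 95% intervals from limma over 48 pigs; red marks the 13 called probes. Of the called heavy chain probes 10 lie to the left of 0 for line and 3 to the right, and for diet no probe is called.

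SLA-1 was measured by 7 probes, and these did not move together. Probe CUST_366_PI427286967 ranged from 6.88 to 8.71 with a median of 7.64 in low RFI pigs on the HF diet, from 6.46 to 9.81 with a median of 8.08 in low RFI pigs on the LF diet, from 7.86 to 9.68 with a median of 9.13 in high RFI pigs on HF, and from 8.14 to 9.52 with a median of 8.93 in high RFI pigs on LF. The groups overlapped, with 20 of the 24 low RFI pigs below the mean of the high RFI line. Its mean was 7.99 ± 0.92 for low RFI pigs and 8.85 ± 0.59 for high RFI pigs (SD, n = 24 each), a difference of -0.86 (SE 0.22, BH adjusted p = 0.0175 with limma) or 1.81-fold. Probe A_72_P035616 was lower by a similar pattern, at 9.54 ± 0.59 against 10.05 ± 0.33 (SD, n = 24 each), a difference of -0.51 (SE 0.14).

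The third SLA-1 probe below in low RFI pigs was A_72_P440391, at 6.23 ± 0.62 against 6.83 ± 0.39 (SD, n = 24 each), a difference of -0.60 (SE 0.15). In contrast, A_72_P124686 was higher in low RFI pigs. It ran from 5.42 to 6.99 with a median of 6.43 in low RFI pigs on HF and from 5.26 to 7.23 with a median of 6.14 on LF, against 4.79 to 6.65 with a median of 5.42 and 4.70 to 6.70 with a median of 5.32 in high RFI pigs on the same diets. Although the ranges overlapped, 22 of the 24 low RFI pigs lay above the mean of the high RFI line. The difference was 0.83 (SE 0.16, BH adjusted p = 0.000906 with limma), 0.83 on either diet, and was positive on all 6 slides.

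Of the other SLA-1 probes none was called. CUST_30_PI427286967, the brightest SLA probe by its mean, was at 10.38 ± 0.22 for the low RFI line against 10.47 ± 0.12 for the high RFI line (SD, n = 24 each), with a 95% interval of the difference from -0.20 to 0.01. CUST_174_PI427286967 had a difference of -0.24 (SE 0.08) that missed the threshold with a BH adjusted p of 0.113. It was called with array weights (BH adjusted p = 0.0253), with the replicate block (0.0725) and without pig 11 of the low RFI line on LF (0.0174).

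SLA-3, another classical heavy chain, had 4 of 8 probes lower in low RFI pigs and none called higher. Probe A_72_P517623 ran from 3.70 to 5.39 with a median of 4.28 in low RFI pigs on HF and from 3.34 to 5.59 with a median of 4.26 on LF. In high RFI pigs it ran from 4.56 to 5.76 with a median of 5.17 on HF and from 4.67 to 5.41 with a median of 4.96 on LF. Both lines reached similar high values, while 18 of the 24 low RFI pigs lay below the high RFI mean. The difference was -0.63 (SE 0.15, BH adjusted p = 0.0118 with limma). The other called probes were A_72_P440386 with a difference of -0.50 (SE 0.12), A_72_P649741 with -0.47 (SE 0.11) and A_72_P683231 with -0.44 (SE 0.11). Among the 4 probes not called, the differences ran from -0.34 at A_72_P515992 to 0.23 at A_72_P625308.

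At SLA-5 both probes were lower in low RFI pigs. Probe A_72_P414498 lay between 1.93 and 3.79 with a median of 2.40 in low RFI pigs on HF and between 1.98 and 4.85 with a median of 2.23 on LF, compared with 1.68 to 4.98 with a median of 3.93 and 1.52 to 4.65 with a median of 3.86 in high RFI pigs. Both lines thus held pigs at low and at high values, and 3 of 12 low RFI pigs on either diet, but 8 of 12 high RFI pigs on HF and 10 of 12 on LF, were above the median of all 48 pigs. The difference was -0.96 (SE 0.25, BH adjusted p = 0.0193 with limma) or 1.95-fold, the largest of the member probes in size. Probe A_72_P441848 differed less, with 7.32 ± 0.40 against 7.67 ± 0.23 (SD, n = 24 each) and a difference of -0.35 (SE 0.09).

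**Figure D2:**
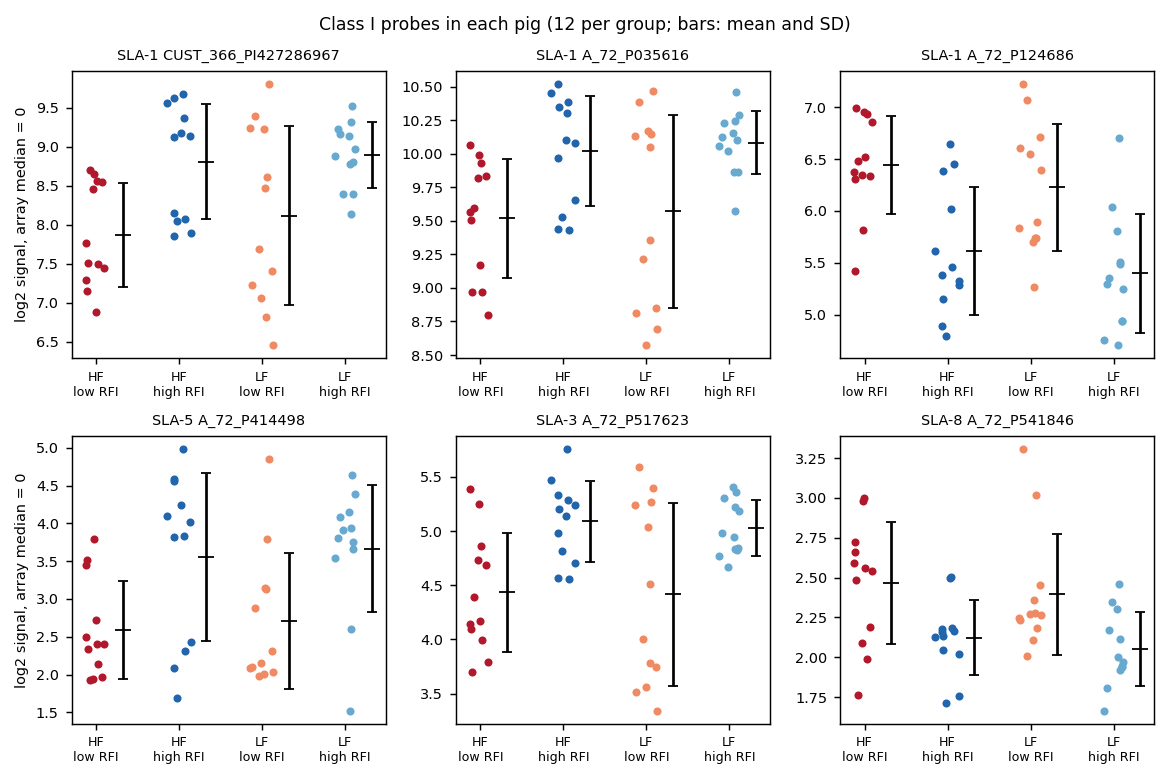
Centred log2 signal of 6 called heavy chain probes in each pig, by diet and line (12 pigs per group), with the mean and SD beside the points. Low RFI pigs are lower at 4 probes and higher at SLA-1 A_72_P124686 and SLA-8 A_72_P541846, and the groups overlap at each.

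SLA-8, a nonclassical heavy chain, moved both ways. Its probe A_72_P070231 was lower in low RFI pigs, at 4.74 ± 0.33 against 5.04 ± 0.18 (SD, n = 24 each), a difference of -0.31 (SE 0.08, BH adjusted p = 0.0137 with limma), with 21 of 24 low RFI pigs below the high RFI mean. The overlapping probes A_72_P541846 and A_72_P734731, shown above, were higher in low RFI pigs by 0.34 (SE 0.09) and 0.33 (SE 0.09). A_72_P541846 ran from 1.76 to 3.0 with a median of 2.55 in low RFI pigs on HF and from 2.01 to 3.31 with a median of 2.27 on LF, against 1.71 to 2.50 with a median of 2.14 and 1.67 to 2.46 with a median of 1.99 in high RFI pigs. The groups overlapped, and 20 of 24 low RFI pigs were above the high RFI mean. The fourth probe, A_72_P517672, had a difference of -0.17 (SE 0.08) and was not called.

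For SLA-6 and SLA-7, the other nonclassical chains, 1 probe each was tested. SLA-6 probe A_72_P237292 had a mean of 1.55 ± 0.25 in the low RFI line and 1.49 ± 0.30 in the high RFI line (SD, n = 24 each), with a 95% interval of the difference from -0.10 to 0.22. SLA-7 probe A_72_P223217, well above background on 37 arrays, was at -1.35 in both lines, with an interval from -0.09 to 0.09. Neither was called for line.

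B2M, the light chain shared by all class I molecules, was lower in low RFI pigs by 0.06 to 0.15 on the log2 scale over its 9 probes, none of which was called. Its brightest probe, CUST_232_PI427286967, ran from 9.18 to 9.68 with a median of 9.42 in low RFI pigs on HF, from 9.17 to 10.09 with a median of 9.35 in low RFI pigs on LF, from 9.27 to 9.70 with a median of 9.52 in high RFI pigs on HF and from 9.13 to 9.92 with a median of 9.5 in high RFI pigs on LF. The groups overlapped almost wholly, and the 95% interval of the line difference ran from -0.20 to 0.02. TAP1, by its brightest probe O4777, was at 5.90 ± 0.43 in the low RFI line and 6.0 ± 0.29 in the high RFI line (SD, n = 24 each), with an interval from -0.31 to 0.12. Over the 5 TAP2 probes the line differences ran from -0.05 to 0.29. The largest, 0.29 (SE 0.13) at A_72_P390538, was positive on all 6 slides but had a BH adjusted p of 0.289.

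**Figure D3:**
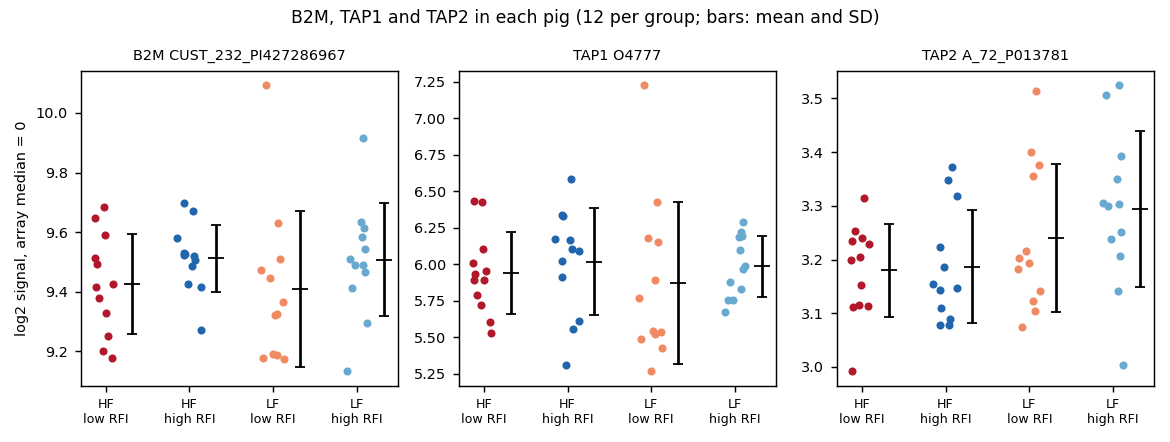
Centred log2 signal of 1 probe each of B2M, TAP1 and TAP2 in each pig, by diet and line (12 pigs per group), with the mean and SD beside the points. The groups overlap at all 3 probes, and 1 low RFI pig on the LF diet lies above all others at B2M (10.09) and TAP1 (7.23).

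Probes that share sequence were then compared within each pig, which removes what a pig's array has in common. All 9 pairs of member probes that shared at least 25 positions with at least 90% identity over their whole ungapped overlap were tested. The test used 100000 two-sided permutations of line within diet, with BH adjusted p over the 9 pairs. The pair CUST_366_PI427286967 and A_72_P124686, shown above for 30 bases only, did not reach 90% over its whole overlap and was not tested. In 3 pairs the line difference differed between the probes. The gap between A_72_P035616 and A_72_P124686 was 3.21 ± 1.0 in the low RFI line and 4.54 ± 0.74 in the high RFI line (SD, n = 24 each), so their line differences lay -1.34 apart (BH adjusted p = 9e-05 in the permutation test, from the smallest p that these permutations can give). SLA-3 probes A_72_P625308 and A_72_P682906 shared 42 positions with 0 mismatches and still differed in sign, at 0.23 and -0.14, with a gap of 0.37 (adjusted p = 0.00045). A_72_P035616 and CUST_366_PI427286967, with 31 shared positions and 0 mismatches, both fell in low RFI pigs but by different amounts, 0.35 apart (adjusted p = 0.024). These 3 gaps had the same sign on both scan days, which their choice on both days together favoured.

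In the other 6 pairs the probes did not pass the test of a difference. Closest to it was the SLA-3 pair A_72_P515992 and A_72_P609764, whose line differences of -0.34 and -0.20 lay -0.14 apart (adjusted p = 0.12). The SLA-8 pair A_72_P541846 and A_72_P734731 lay 0.01 apart, and the pair A_72_P440391 of SLA-1 and A_72_P440386 of SLA-3, with 4 substitutions, lay -0.10 apart (adjusted p = 0.28). The pair CUST_238_PI427286967 and CUST_30_PI427286967, with their different descriptions, lay 0.00 apart.

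**Figure D4:**
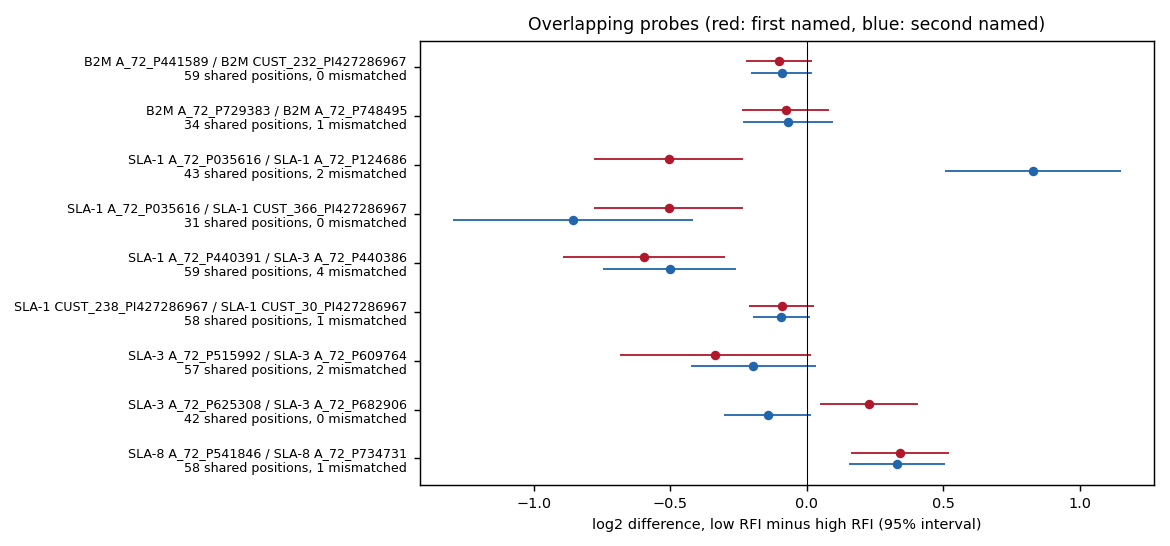
Line difference (low RFI minus high RFI, log2, with 95% interval from limma over 48 pigs) of both probes of each of the 9 overlapping pairs, with the number of shared and mismatched positions. Signs are opposite in the SLA-1 pair A_72_P035616 and A_72_P124686 and in the SLA-3 pair A_72_P625308 and A_72_P682906.

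No change of the line differences with diet was called, and the called differences had the same direction on both scan days. The interaction of diet and line was called for none of the 40 member probes by limma, with 0 probes at a raw p under 0.05. The 2-way analysis of variance gave the same count of 0. As 0.00% of all probes were called for interaction, the test does not show that line differences were equal on both diets. The 13 called probes kept their direction on both scan days. As they were called on both days together, this agreement was favoured in advance and is no separate support. When only 1 scan day was used, 0 of them were called on the first and 3 on the second, with differences of 0.23 to 0.82 and of 0.28 to 1.1 in size.

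Pigs varied widely at the heavy chain probes within a diet and line group. The within-group SD was above the 95th percentile of all tested probes, 0.513, at 6 of the 23 heavy chain probes and at 0 of the 17 B2M and TAP probes. It reached 0.89 at SLA-5 A_72_P414498 and 0.78 at SLA-1 CUST_366_PI427286967, against a median of 0.205 over all tested probes. The mean absolute deviation from the group median was larger in low RFI than in high RFI pigs at 34 of the 40 probes, among them 19 of the 23 heavy chain probes, and at 50.1% of all tested probes. Several of the 40 probes measure the same gene in the same pigs, so they are not separate observations. The low RFI line also held pig 11 on LF, the highest of all 48 pigs at 25 of the 40 probes. The count of 34 is not given without this pig. The mean absolute deviation was 0.61 in low RFI against 0.25 in high RFI pigs at A_72_P517623 and 0.50 against 0.25 at A_72_P035616. No member probe was called in the limma test of this spread, which called 0.0185% of all probes. A raw p under 0.05 was found for 9 of the 40, against 4.49% of all probes, and their smallest BH adjusted p was 0.105. A_72_P517623 was called with slide (BH adjusted p = 0.0384) or replicate number (0.0312) as a block.

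The HF diet moved 0 of the 40 member probes past the thresholds, whereas 23.0% of all tested probes were called for diet, 8.57% higher and 14.5% lower on HF. The differences of HF minus LF ran from -0.16 to 0.22 over the 40 probes, with a median of 0.04, compared with -0.02 over all tested probes. They were above 0 at 32 probes, among them all 9 of B2M, which ran from 0.00 to 0.13, and all 3 of TAP1, from 0.05 to 0.07. Probes of 1 gene measure the same transcripts in the same pigs, so this count is not one of separate observations. The share of all tested probes above 0 is not given. With limma 1 member probe had a raw p under 0.05, as with the 2-way analysis of variance. This was TAP2 A_72_P013781, at 3.18 ± 0.09 on HF and 3.27 ± 0.14 on LF (SD, n = 24 each), a difference of -0.08 (SE 0.04, BH adjusted p = 0.0820). The probe with the largest estimate, SLA-1 A_72_P124686, had a difference of 0.22 with a 95% interval from -0.10 to 0.54. Over the B2M and TAP probes the intervals stayed between -0.28 and 0.31.

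Of the genes that act with class I, 5 of the 31 measured ones were called for diet, 2 higher and 3 lower on HF, where 24.5% of all 9297 named genes were called by their brightest probe, 558 higher and 1719 lower on HF. PSME1, a subunit of the activator of the immunoproteasome that cuts peptides for class I, was higher on HF by 0.14 (SE 0.05), and IRF2, an interferon regulatory factor, by 0.18 (SE 0.05). CANX, the chaperone calnexin that holds new heavy chains, was lower by 0.21 (SE 0.07) on the log2 scale. LNPEP, an aminopeptidase that can trim peptides, fell by 0.22 (SE 0.06), and NLRC5, the transactivator of class I genes, fell by 0.14 (SE 0.05). NLRC5 was not called after centring on the 75th percentile, quantile normalization, normexp, with the processed signal, with the mean of its probes or without pig 11, CANX not after quantile normalization, and PSME1 not with the replicate block.

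By list, 0 rose and 2 fell on HF among 8 measured peptide loading and trimming genes, 1 rose and 0 fell among 5 immunoproteasome and activator genes, and 1 rose and 1 fell among 13 regulators. None was called among 2 class I like molecules and 3 receptors of T and NK cells. Of the receptors, KLRK1, the activating receptor NKG2D, had a difference of 0.33 (SE 0.13) and was called higher on HF after centring on the 75th percentile, quantile normalization, normexp, with the processed signal, with array weights and without pig 11. CD8A, a chain of the CD8 coreceptor, had 0.28 (SE 0.12) and was called with array weights and without pig 11. TAPBP, the tapasin that bridges TAP and heavy chain, had a diet difference of 0.23 (SE 0.09) and a raw p of 0.0141, and was called after centring on the 75th percentile, after quantile normalization, and with slide or replicate number as a block.

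For line, limma called 0 of the 31 partner genes, with 5 at a raw p under 0.05, and the 2-way analysis of variance also called 0, while 3.10% of all named genes were called, 163 higher and 125 lower in low RFI pigs. The largest difference was that of PSMB8, an immunoproteasome subunit whose gene lies between the TAP genes, at -0.45 (SE 0.15, BH adjusted p = 0.0932). It was called with slide, replicate number or array weights in the fit, or without pig 11. Among the 13 regulators, 4 had a raw p under 0.05 with limma, against 12.6% of all probes. IFNGR1 (0.21, SE 0.07) and JAK2 (0.10, SE 0.05) were higher in low RFI pigs. IRF9 (-0.24, SE 0.10) and IRF2 (-0.11, SE 0.05) were lower. The transactivator NLRC5 differed by -0.02 (SE 0.05) and IRF1 by -0.01 (SE 0.09) between the lines.

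Markers of the cells that fat tissue can hold were set beside these values. For line, limma called 0 of 36 measured markers, while 3.10% of all named genes were called. A raw p under 0.05 was found for 2 markers, against 12.6% of all probes. The mean level of 7 T and NK cell markers ran from 1.24 to 2.49 in low RFI and from 1.38 to 2.09 in high RFI pigs, and that of 8 macrophage markers from 1.79 to 4.19 and from 2.24 to 4.24. The mean level of 4 B cell markers ran from -0.83 to -0.11 and from -0.76 to 1.43. Markers of a list differ in level, with T and NK marker CD5 at 6.53 and CD2 at -0.55 over all pigs. The list means are thus set against each other between pigs only. For diet, 6 of 8 macrophage markers and 2 of 7 T and NK cell markers were called higher on HF. Of 6 adipocyte markers 2, CIDEC and LEP, were called lower, and the rest were not called. Among all 9297 named genes, 558 were called higher and 1719 lower on HF. The part of these cells in the signal of the class I probes was not tested.

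After the mean of each diet and line group was subtracted, 5 of the 8 other tested member genes followed TAP1 from pig to pig. The brightest tested probe of each other member gene was set against TAP1 probe O4777 over the 48 pigs, 8 relations in all, with 100000 permutations within groups. The relation was strong for SLA-5 A_72_P441848 (r = 0.83, rho = 0.77), B2M CUST_232_PI427286967 (r = 0.79, rho = 0.76), SLA-3 A_72_P682906 (r = 0.77, rho = 0.76) and SLA-1 CUST_30_PI427286967 (r = 0.74, rho = 0.67). Each had a BH adjusted permutation p of 2e-05 for both r and rho, with p at the smallest value these permutations can give. Without the 2 pigs farthest from the TAP1 median r was 0.77, 0.69, 0.69 and 0.60 in the same order.

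The relations of the other genes with TAP1 had lower r over all pigs, and 1 of them, that of SLA-6, passed. SLA-6 A_72_P237292 gave r = 0.48 and rho = 0.45 (BH adjusted permutation p = 0.00062 and 0.002), and r = 0.35 without the 2 farthest pigs. SLA-8 A_72_P070231 gave r = 0.33 and rho = 0.27 (adjusted p = 0.059 and 0.1), and 0.21 without those pigs. TAP2 A_72_P510149 gave r = 0.28 and rho = 0.18 (adjusted p = 0.053 and 0.24), and 0.17 without them. SLA-7 A_72_P223217 gave r = -0.04 and rho = -0.03 (adjusted p = 0.83 for both), and -0.05 without them. On the first and the second scan day r was 0.82 and 0.86 for SLA-5, 0.72 and 0.89 for B2M, 0.83 and 0.72 for SLA-3, 0.64 and 0.82 for SLA-1, 0.50 and 0.49 for SLA-6, 0.10 and 0.48 for SLA-8, 0.18 and 0.34 for TAP2 and -0.16 and 0.13 for SLA-7. In low RFI and then high RFI pigs r was 0.91 and 0.54 for B2M, 0.86 and 0.56 for SLA-3, 0.85 and 0.78 for SLA-5, 0.82 and 0.54 for SLA-1, 0.73 and 0.19 for SLA-6, 0.42 and 0.06 for TAP2, 0.21 and 0.69 for SLA-8 and 0.06 and -0.20 for SLA-7. The order of the genes thus differed between the lines, and the differences between these correlations were not tested. The low RFI values include pig 11 on LF, the highest at TAP1, and are not given by line without it. Over all pigs, leaving it out gave r = 0.70 for B2M and 0.37 for SLA-6.

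**Figure D5:**
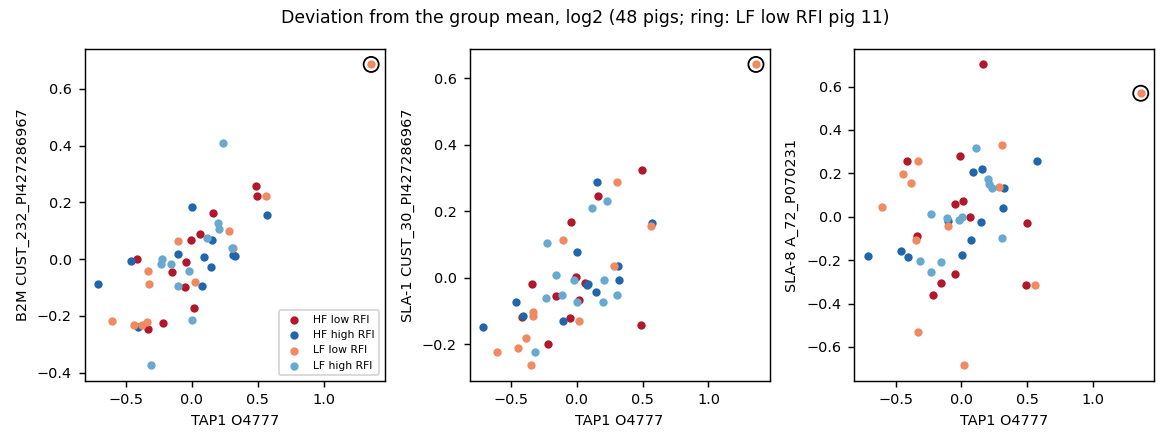
Deviation of B2M, SLA-1 and SLA-8 probes (vertical) from the group mean against that of TAP1 probe O4777 (horizontal), both on the log2 scale, for 48 pigs coloured by diet and line; the ring marks pig 11 of the low RFI line on LF. Over all pigs r with TAP1 is 0.79 for B2M, 0.74 for SLA-1 and 0.33 for SLA-8, and the ringed pig is the farthest to the right.

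Among the 9288 named genes outside the members, those most like TAP1 O4777 over the 48 pigs included PSMB9 (r = 0.90), SLA-DQA1 (r = 0.81), CXCL10 (r = 0.79) and GVIN1 (r = 0.79), as a description with no test. For B2M CUST_232_PI427286967 they included GVIN1 (r = 0.87), PSMB9 (r = 0.87), ISG20 (r = 0.85) and CXCL10 (r = 0.84). For SLA-1 CUST_30_PI427286967 they included PSMB9 (r = 0.80), CASP1 (r = 0.74), CD38 (r = 0.74) and SLC2A6 (r = 0.73). PSMB9 is an immunoproteasome subunit, CXCL10 is a chemokine and SLA-DQA1 is a class II chain. PSMB9 was named for all 3 probes, and none of the named genes was called for diet or line.

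One pig stood apart. Pig 11 of the low RFI line on LF had the highest value of all 48 pigs at 25 of the 40 tested member probes, of which 6 were B2M, 7 TAP and 12 heavy chain probes. Its values were 7.23 at TAP1 O4777 and 10.09 at B2M CUST_232_PI427286967. Without it 14 in place of 13 member probes were called for line, including all 13, and r with TAP1 was 0.70 for B2M, 0.62 for SLA-1 and 0.79 for SLA-5.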

How the data were processed

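Spot intensity values and flags of 0 or 1 were made by the authors with the scanner software (Agilent Feature Extraction) and deposited for 48 one-colour arrays without normalization between arrays, and the log2 values of 38142 probes were deposited after the authors filtered spots and centred each array on its median, with R 2.10.0 per the labels. The deposited log2 values equal log2 of the median signal of 1 spot each (tolerance 1e-06), but their row names belong to other spots, so the scanner files were used. Here log2 of the median signal was centred on the median of the 60306 spots that are not controls, and 2 spots of a same probe were averaged.

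Diet, line and interaction were fitted with limma 3.58.1 in R 4.3.3 (lmFit, eBayes) for probes well above background on at least 24 arrays, with the 3 thresholds given above (0.01 for raw p, 1.1 for fold, 0.08 for the BH adjusted p). Spread was tested with limma on absolute deviations from group medians. Permutation tests used Python 3.11.15, numpy 2.4.6, pandas 2.3.3 and scipy 1.17.1, and plots matplotlib 3.10.9. Tested on simulated data with 43355 probes, the line test called 79 of 100 probes changed by 0.3 and 94 of 100 changed by 0.6 on the log2 scale, and the spread test 69 of 200 probes with 3 times the SD in low RFI pigs. Recovery was not tested for the member probes alone. The within-group SD had a median of 0.33 over the 23 heavy chain probes and reached 0.89, against a median of 0.205 over all tested probes. The recovery counts are therefore not given as rates for the heavy chain probes, and a probe not called is not shown to be unchanged. Precision depends on how many arrays there are and on the spread between pigs. The SE of the line difference ran from 0.04 at a TAP2 probe to 0.25 at an SLA-5 probe. Open to naming were all member probes, the partner lists (given by count, with values for called genes and a few others) and the 5 genes most alike in pattern to TAP1, B2M and the brightest SLA probe. One gene that this rule names is not reported here. Members and lists were chosen with earlier results of these data known. Alternatives were other centrings, background corrections, filters, blocks, weights and thresholds, and, added after seeing the data, either scan day alone and leaving out pig 11 of the low RFI line on LF. Partner gene symbols came from the files (21483 spots) or from accessions through the RefSeq table (909), and 37914 spots had no symbol. No genome was used.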

Additional observations from a re-analysis of the deposited data

How the results depend on the processing

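All 13 line calls of member probes kept their direction under the 17 alternatives, and all 13 were called under 14 of them, where the count was 13 or 14. Alternatives that changed only the filter, the block, the test or the thresholds left the estimates as they were, so direction could not change there. Each scan day is a part of the data that gave the calls, which favoured the same direction. With a fold change over 1.5 the count was 5, on the first scan day alone it was 0 and on the second 3. The count for diet and for the interaction was 0 under each alternative run for them. For spread between pigs the count was 0 except for 1 with slide as a block and 1 with the replicate block. For the partner genes the diet count of 5 became 0 at a fold over 1.5, 1 on the first and 2 on the second scan day, and lay between 4 and 7 otherwise. Their line count of 0 became 2 with slide as a block (IFNGR1 and PSMB8), 2 with the replicate block, 1 with array weights and 1 without pig 11 of the low RFI line on LF (PSMB8). The labels do not say that replicate numbers pair pigs. Pigs with the same number in different groups had a median correlation of deviations of 0.12, from -0.29 to 0.53, against 0.06 for other pigs of the same slide and -0.02 for pigs of other slides, and 16 of 48 pigs were closest to one of their own number. As not every pair correlated positively, the numbers were not taken as pairs, though a structure shared by number is not excluded. Apart from the calls named here, the replicate block added SLA-1 CUST_174_PI427286967, which made 14 line calls of members, and exchanged PSME1 for TAPBP among the 5 diet calls of partner genes. Over all probes the spread test called 8 probes and between 0 and 14 under the alternatives, and a fold over 1.5 lowered the diet calls from 9993 to 440 and the line calls from 1463 to 233. On the scan days alone line calls over all probes were 236 and 382.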
